A study of Arabidopsis thaliana with 2 samples.

Results

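NAP (AT1G69490), SAG21 (AT4G02380) and RNS1 (AT2G02990) are 3 genes tied to leaf ageing in *Arabidopsis thaliana*. They were taken by locus from tables of transcripts that differed between wild-type leaves and leaves of WRKY75 RNAi plants. The tables hold 2159 loci in all; NAP and SAG21 are in the table of lower transcripts, and RNS1 is in the table of higher ones, so the direction of each is set by how it was chosen. Polyadenylated RNA was sequenced from the third and the fourth leaves of plants aged 28 days, with 1 library of wild-type Col-0 and 1 library of WRKY75RNAi, which is in the same Col-0 background. In the RNAi plants the transcription factor gene WRKY75 is targeted by RNA interference, a silencing by double-stranded RNA. The sources used here do not name the promoter of the RNAi construct, the number of independent lines or the number of plants per library. The library totals behind the deposited values were 41328980 reads for wild type and 38042482 reads for WRKY75 RNAi.

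Leaf senescence is the last phase of a leaf's life, in which chlorophyll, proteins and nucleic acids are broken down and their nitrogen and phosphorus are moved to growing organs. The series title places WRKY75 in a loop with salicylic acid and reactive oxygen species that speeds this phase, so the comparison asks how far senescence-linked transcripts differ when WRKY75 is reduced. NAP encodes a NAC transcription factor that promotes senescence. SAG21, also called AtLEA5, encodes a small late embryogenesis abundant protein linked to tolerance of oxidative stress, and its transcript is known to rise early in senescence and under stress. RNS1 encodes a secreted ribonuclease of the T2 family, known to be induced by phosphate starvation, by wounding and in senescence. WRKY proteins bind the W-box, a short DNA motif with the core TTGAC.

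The region upstream of each gene is shown because WRKY75 is a DNA-binding factor and the 3 genes differed between the libraries. Each sequence is the 250 bases before the gene start of the RefSeq annotation on TAIR10.1, on the gene's own strand, 5′ to 3′. Capitals mark matches, on either strand, to 4 motifs: the W-box forms TTGACC and TTGACT, the G-box CACGTG, and P1BS (GNATATNC), the sequence bound by the phosphate starvation regulator PHR1. NAP lies at chr1:26121830-26122079 on the plus strand, SAG21 at chr4:1047106-1047355 on the minus strand, and RNS1 at chr2:873256-873505 on the plus strand, and 0 other annotated genes overlap these windows.
NAP: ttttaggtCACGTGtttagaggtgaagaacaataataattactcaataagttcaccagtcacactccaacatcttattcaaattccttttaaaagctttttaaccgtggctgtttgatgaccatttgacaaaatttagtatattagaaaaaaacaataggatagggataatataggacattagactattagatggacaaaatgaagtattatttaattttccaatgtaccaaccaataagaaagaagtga
SAG21: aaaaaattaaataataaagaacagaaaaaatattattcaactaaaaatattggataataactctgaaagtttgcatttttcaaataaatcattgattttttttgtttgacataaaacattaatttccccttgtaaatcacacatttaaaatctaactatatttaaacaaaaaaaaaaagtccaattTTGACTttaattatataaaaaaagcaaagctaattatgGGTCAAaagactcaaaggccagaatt
RNS1: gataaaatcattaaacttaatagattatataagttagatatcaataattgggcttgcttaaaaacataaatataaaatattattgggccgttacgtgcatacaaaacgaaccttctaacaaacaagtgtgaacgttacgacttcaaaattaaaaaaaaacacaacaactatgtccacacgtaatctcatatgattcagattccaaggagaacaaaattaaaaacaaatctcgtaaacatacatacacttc

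SAG21 was the gene with W-box matches next to its start. It held TTGACT at 64 to 59 bases and, on the opposite strand, TTGACC at 26 to 21 bases before the gene start. That gene start belongs to AT4G02380.3, which is not listed. Models AT4G02380.1 and AT4G02380.2, which are listed, start 21 and 112 bases downstream of it, so the matches lie farther from their starts. In the 250 bases before NAP, 1 match was found, a G-box at 242 to 237 bases. The core TTGAC followed by another base was not searched for, and it stands in lower case as ttgaca in the NAP and SAG21 sequences. Before RNS1 there were 0 matches to any of the 4 motifs, also when the window was widened to 1000 bases. The wider window added for NAP a TTGACT at 487 to 482 bases, a TTGACC at 702 to 697 bases and a pair of P1BS matches, and for SAG21 a TTGACT at 727 to 722 bases. Either W-box form was present within 250 bases of 28.4% of 27443 protein-coding genes and within 1000 bases of 67.3%, so a match is common and is not a binding site by itself. A G-box was present within 250 bases of 6.49% and P1BS within 250 bases of 5.46% of these genes. The deposited models are those of TAIR10, and their starts may differ from the ones used here.

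**Figure D1:**
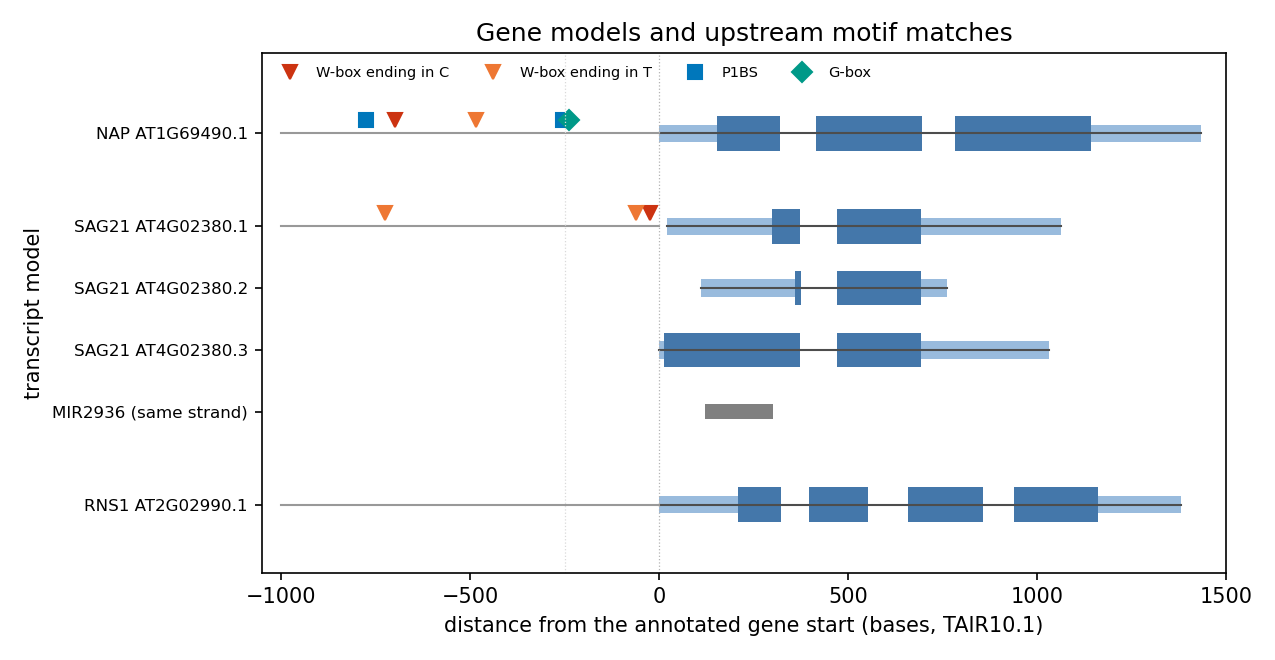
Annotated transcript models of the 3 genes (dark boxes, coding sequence; pale boxes, untranslated exon parts; lines, introns) against the distance in bases from the gene start, with motif matches in the 1000 bases upstream. SAG21 has W-box matches at 64 and 26 bases before its gene start, which is that of the unlisted model AT4G02380.3. The NAP matches lie at 237 bases or farther, and RNS1 has 0 matches.

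WRKY75 itself served as the check of the labels. It had 1699 reads in wild type and 476 reads in the library labelled WRKY75 RNAi, which is 30.4% of the wild-type RPKM (log2 ratio -1.72, interval -1.87 to -1.57). RPKM is the number of reads scaled to the deposited gene length in kilobases and to the size of the library. Each interval below is a 95% Clopper-Pearson (exact) interval for a ratio of reads. It covers counting error alone, since PCR copies are not independent molecules and 1 library per genotype shows no spread between plants. For that reason no difference below has a replicate check or a test of genotype. Of 31475 transcript models tested by the authors, a number recovered from the ranks of their false discovery rates, 3.17% are in the lower table and 4.32% in the higher table. Of the 4 models of the 3 genes that are listed, 3 are in the lower table (1 of NAP and 2 of SAG21) and 1 is in the higher table. The rule chose the members from these tables, so nothing is read from that count. In bulk leaf RNA, fewer cells of a type and less RNA per cell cannot be told apart.

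NAP, the regulator of the group, was the least abundant and rested on the fewest reads. Its only listed model, AT1G69490.1, had 361 wild-type reads (6.81 RPKM) and 98 RNAi reads (2.01 RPKM). The wild-type library was the higher of the pair, and RNAi stood at 29.5% of it. This is a log2 ratio of -1.76, with an interval of -2.10 to -1.44. With 1 RPKM added to both libraries the NAP log2 ratio was -1.38, and with 5 RPKM added it was -0.75, within 2-fold.

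SAG21, by its model with most reads, was the most abundant of the 3 in both libraries. Model AT4G02380.1 had 14794 reads (451 RPKM) in wild type and 4288 reads (142 RPKM) in WRKY75 RNAi. The RNAi library was again the lower one, at 31.5% of wild type, a log2 ratio of -1.67 with an interval of -1.72 to -1.62. The second listed model, AT4G02380.2, had 6630 reads (247 RPKM) in wild type and 1853 reads (74.9 RPKM) in WRKY75 RNAi, a log2 ratio of -1.72 with an interval of -1.79 to -1.65. Reads assigned to the second model were 44.8% of those assigned to the first in wild type and 43.2% in WRKY75 RNAi. All exon bases of the second model except 4 also lie in exons of the first. The like values are therefore not separate measurements of 2 transcripts.

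Model AT4G02380.2 lies within the span of AT4G02380.1, and the sources used here do not say how reads were shared between them. In TAIR10.1 both have 2 exons, the same 3′ splice site and the same stop, and model AT4G02380.2 keeps 4 more bases at the end of its first exon. That junction is shown because it is the only splice difference between the listed models, at chr4:1046715-1046749 on the minus strand of TAIR10.1, with the 4 extra bases in capitals.
SAG21 junction: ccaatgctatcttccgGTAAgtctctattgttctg
By the annotation the first model encodes 97 residues and the second 78. The other annotated model, AT4G02380.3, was not listed. The microRNA gene MIR2936 lies within the first exon of SAG21 on the same strand over 180 bases and was not listed either. Reads from it and from SAG21 cannot be told apart.

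RNS1 went the other way and had the largest ratio of the 3. AT2G02990.1, its only listed model, had 456 reads (8.45 RPKM) in wild type and 4772 reads (96.1 RPKM) in WRKY75 RNAi. RNAi was the higher library by 11.4-fold, a log2 ratio of 3.51 with an interval of 3.37 to 3.65. With 5 RPKM added to both libraries its log2 ratio was 2.91.

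**Figure D2:**
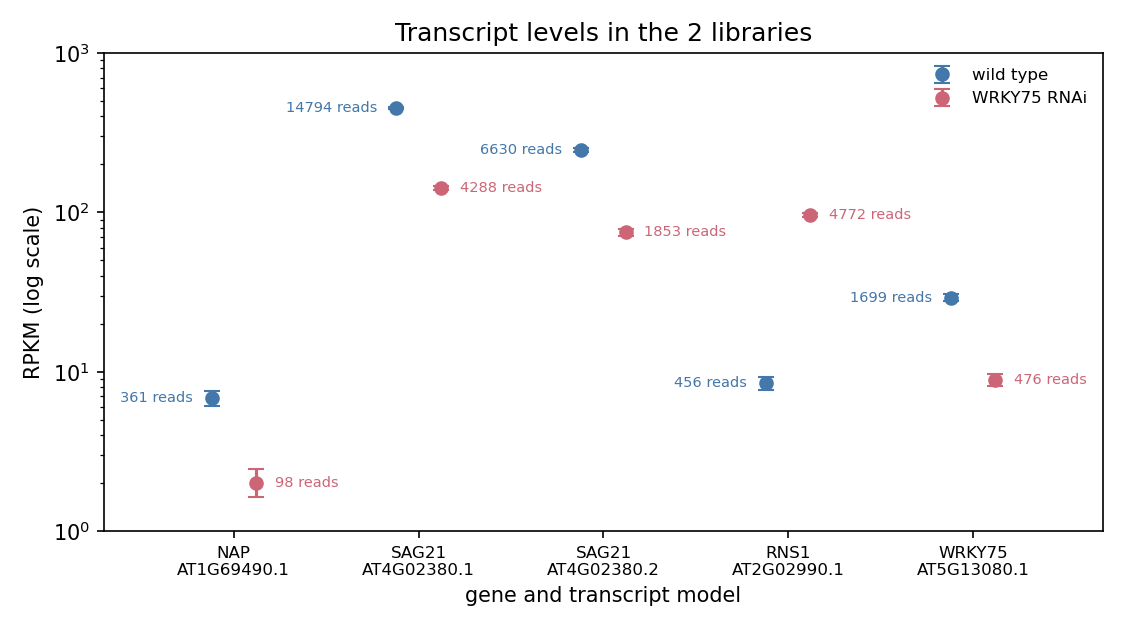
RPKM on a log scale of every listed model of NAP, SAG21 and RNS1 and of WRKY75 in the wild-type (blue) and WRKY75 RNAi (red) libraries, 1 point per library, with read numbers. Bars are exact 95% intervals of the reads; wild type is higher for NAP, SAG21 and WRKY75, and RNS1 is 11.4-fold higher in RNAi.

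With AT4G02380.1 taken for SAG21, the order of the levels was the same in both libraries, but the gaps differed. In wild type, per kilobase of deposited length, SAG21 at 451 RPKM stood far above RNS1 at 8.45 RPKM and NAP at 6.81 RPKM. In WRKY75 RNAi, RNS1 at 96.1 RPKM was of the same order as SAG21 at 142 RPKM, and NAP was at 2.01 RPKM. The other listed SAG21 model, AT4G02380.2, was at 74.9 RPKM in WRKY75 RNAi, below RNS1. The order of SAG21 and RNS1 in that library therefore depends on the model. The deposited length is 650 bases for AT4G02380.2, 1 base less than its genomic span in TAIR10.1, while those of NAP, AT4G02380.1 and RNS1 match neither the span nor the spliced length there, so levels per deposited length are approximate between genes. Per kilobase of the spliced TAIR10.1 model, AT4G02380.1 had 379.6 and 119.5 RPKM in wild type and RNAi, and AT4G02380.2 had 289 and 87.8. RNS1 on that scale had 9.85 and 112.0, and NAP had 6.98 and 2.06. In RNAi, RNS1 thus lay between the listed SAG21 models.

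The reductions of NAP and SAG21 could not be separated at this depth. Their log2 ratios differed by -0.09, with an approximate 95% interval of -0.42 to 0.23. Both also lay close to the targeted gene, but the median log2 ratio of all lower loci with reads in both libraries was -1.48. Closeness to WRKY75 is therefore not particular to them. The log2 ratio of NAP minus that of WRKY75 was -0.05 (interval -0.40 to 0.31), and for SAG21 it was 0.05 (interval -0.11 to 0.20). The senescence regulator gene WRKY53 was lower in ratio than SAG21 model AT4G02380.1 by a small margin. Their log2 ratios differed by 0.15 (interval 0.07 to 0.22, counting error only). For the other listed model, AT4G02380.2, the interval of -1.79 to -1.65 overlaps that of WRKY53, -1.87 to -1.76. The order of these reductions therefore depends on the model.

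Among loci with reads in both libraries, listed for the same direction, NAP ranked 263 and SAG21 ranked 318 of 852 by the size of the ratio. The median log2 ratio of these lower loci was -1.48, so neither reduction was large for a listed gene. By abundance SAG21 ranked 8 of 930 lower loci and NAP ranked 342. Only PR1, the marker gene of salicylic acid signalling, had both a higher RPKM and a larger reduction than SAG21. RNS1 ranked 53 of 1148 higher loci by ratio, where the median log2 ratio was 1.49, and 58 of 1229 by RPKM. Of the higher loci, 0 exceeded RNS1 in both measures.

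**Figure D3:**
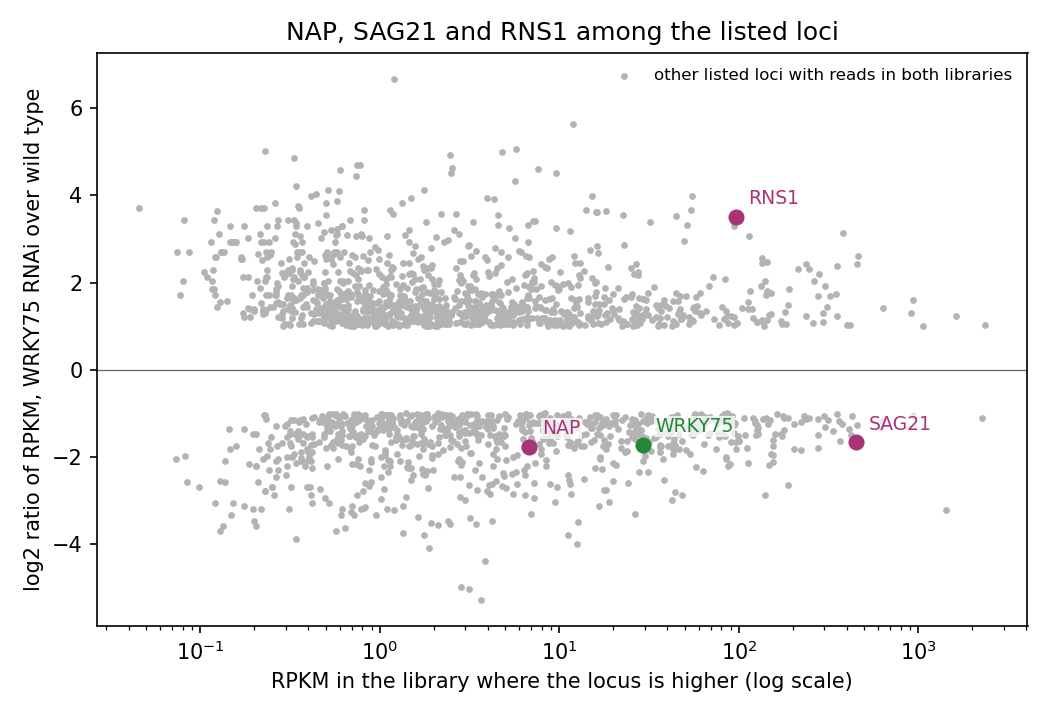
The log2 ratio of RPKM (WRKY75 RNAi over wild type) against the RPKM in the higher library, log scale, for every listed locus with reads in both libraries (grey), with NAP, SAG21 and RNS1 in purple and WRKY75 in green. SAG21 (-1.67) lies among the most abundant lower loci, NAP (-1.76) at mid abundance, and RNS1 (3.51) at the upper edge of the abundant higher loci; no locus lies within 2-fold because the tables hold only loci beyond it.

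Most other senescence genes were absent from the tables, as were most tested models. Of 22 leaf senescence genes besides NAP and SAG21, 3 were lower and 1 was higher. Over all tested models 3.17% were lower and 4.32% higher. The list was chosen with results of these data known, so nothing is read from its larger share of lower genes. WRKY53 had 13557 and 3549 reads (203 and 57.9 RPKM; log2 ratio -1.81, interval -1.87 to -1.76). WRKY6, another WRKY gene of senescence, had 2834 and 1170 reads (-1.16, interval -1.26 to -1.06). JUB1 (AT2G43000) encodes a NAC factor induced by hydrogen peroxide that delays senescence when overexpressed; it had 266 and 101 reads (-1.28, interval -1.62 to -0.94). The lower genes thus include 1 that delays senescence.

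Among the genes examined, some regulator and breakdown genes of senescence were not listed. These include SAG12, a cysteine protease gene used as a late senescence marker, SAG13, the NAC regulator genes ORE1 and ORS1, and the nuclease gene BFN1. Of 7 chlorophyll breakdown genes, among them SGR1, NYC1, PPH and PAO, 0 were listed in either direction. For so few genes this is near the shares over all tested models (3.17% lower and 4.32% higher). A gene that is not listed may have missed the authors' thresholds in either library, and its level is not known here.

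SAG113 (AT5G59220, also HAI1), a phosphatase gene that NAP is known to activate directly, stood against NAP in direction. It had 452 wild-type reads (4.94 RPKM) and 927 RNAi reads (11.0 RPKM), 2.23-fold higher (log2 ratio 1.16, interval 0.99 to 1.32). It was higher in the library in which NAP was lower. The other 2 known NAP targets examined, the abscisic aldehyde oxidase gene AAO3 and the cytokinin oxidase gene CKX3, were not listed. Of the 3 targets, 1 was thus higher and 0 were lower, where 4.32% and 3.17% of all tested models were. With so few genes nothing is read from that count.

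Of 7 NAC genes related to NAP, 0 were lower and 2 were higher, where 3.17% and 4.32% of all tested models were. RD26 (AT4G27410), an abscisic acid-responsive NAC gene, had 514 and 949 reads, 11.2 and 22.4 RPKM (log2 ratio 1.004, interval 0.85 to 1.16). NAC025 (AT1G61110) rested on 2 wild-type reads and 48 RNAi reads, for a log2 ratio of 4.70 with a wide interval of 2.77 to 7.79. NAC019, NAC055, NAC047, NAC018 and NAC056 were not listed.

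The relatives of SAG21 and RNS1 were not listed. Of 3 other LEA_3 family genes (DI21, AT1G02820 and AT3G53770), 0 were in either table. Of 4 other T2 ribonuclease genes, RNS2 to RNS5, 0 were in either table, including RNS2, which encodes the vacuolar enzyme that turns over ribosomal RNA. With 3.17% of all models lower and 4.32% higher, 0 listed among so few genes is near the background.

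Of 17 phosphate starvation genes besides RNS1, 1 was higher and 0 were lower, near the shares over all tested models (4.32% and 3.17%). The higher gene was MGD3 (AT2G11810), a galactolipid synthase gene, on 6 and 24 reads, 0.0425 and 0.185 RPKM (log2 ratio 2.12, interval 0.79 to 3.70). The regulator genes PHR1, SPX1 and SPX3, the phosphate transporter genes PHT1;1 and PHT1;4 and the phosphatase genes PAP10, PAP12 and PAP17 were not listed.

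SAG21 belongs also to the genes induced by hydrogen peroxide and mitochondrial stress. Of 13 others, 2 were lower and 1 was higher, beside 3.17% and 4.32% of all tested models. OM66 (AT3G50930), which encodes an outer mitochondrial membrane protein, had 35793 and 13991 reads (374 and 159 RPKM; log2 ratio -1.24, interval -1.26 to -1.21). BAP1 (AT3G61190), a cell death inhibitor gene, had 6818 and 2914 reads (-1.11, interval -1.17 to -1.04). APX2 (AT3G09640), an ascorbate peroxidase gene, was without reads in wild type and had 10 reads in the RNAi library, 3.62-fold higher against a floor of 3 reads per library. Counting error in those 10 reads is not part of that value, and the exact interval of its log2 ratio starts at 1.28. The zinc finger gene ZAT12, the oxidase gene RBOHD and the catalase gene CAT2 were not listed.

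**Figure D4:**
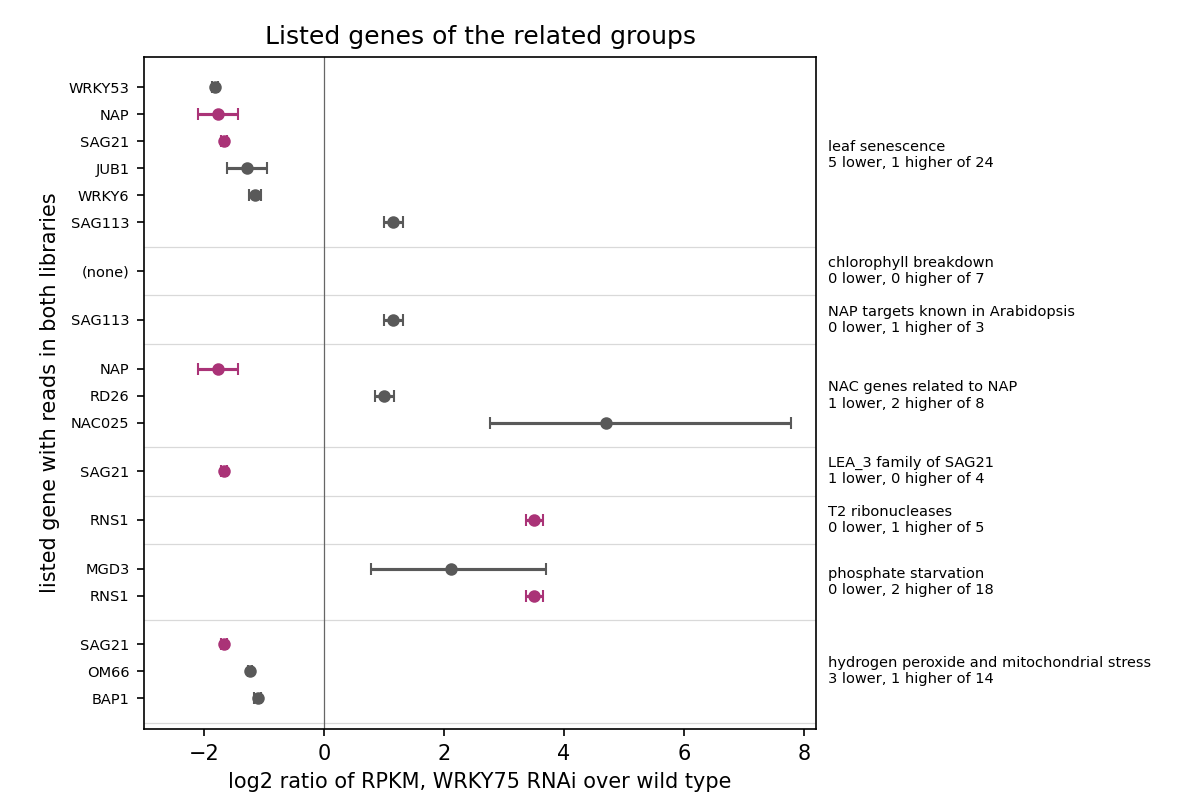
Log2 ratios of RPKM (WRKY75 RNAi over wild type) of the listed genes in 8 groups, with exact 95% intervals of the read ratio; NAP, SAG21 and RNS1 are in purple, and the counts of lower and higher genes of each group stand at the right. Most members of each group are not listed and have no point, and APX2 is left out because it has 0 reads in wild type.

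The loci with values most like those of each gene were found by distance in the plane of log2 ratio and log2 wild-type RPKM, over the 2 libraries. Nearest to NAP were BEE1 (AT1G18400; 6.88 and 2.04 RPKM), AT1G67520 (6.66 and 2.01 RPKM) and AT1G72950 (6.35 and 1.87 RPKM). BEE1 is a brassinosteroid signalling factor, AT1G67520 is annotated as a lectin protein kinase and AT1G72950 as a resistance protein of the TIR-NBS class. Nearest to SAG21 were DIC2 (AT4G24570; 421 and 150.3 RPKM), a mitochondrial dicarboxylate carrier gene, PLA2A (AT2G26560; 366 and 118 RPKM), a lipid acyl hydrolase gene, and PUP18 (AT1G57990; 410 and 160.3 RPKM). Nearest to RNS1 were AT3G28220 (9.63 and 93.9 RPKM), of the TRAF-like family, the vegetative storage protein gene VSP2 (AT5G24770; 6.37 and 49.4 RPKM) and the transporter gene AT3G21670 (5.18 and 51.7 RPKM). With 2 libraries such likeness means only similar levels.

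Of the 10 nearest protein-coding genes on both sides, 1 was listed for each gene, beside 3.17% lower and 4.32% higher over all tested models. These were AT1G69480 near NAP (14 and 226 reads, log2 ratio 4.13), AT4G02360 near SAG21 (40 and 188 reads, 2.35) and AT2G03030 near RNS1 (15 and 36 reads, 1.38), each in the higher table.

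Among 93 ontology terms that the authors' deposited table lists for lower transcripts, SAG21 was counted under 4 terms and NAP under 1. SAG21 was among the 114 of 857 lower genes under response to stress, against 1853 of 27594 background genes (adjusted p 3.49e-10 in the authors' deposited table). NAP was among the 140 of 857 lower genes under biological regulation, against 3243 of 27594 background genes (adjusted p 0.000993 in the authors' deposited table). Of the tissue markers examined (5 of leaf mesophyll, 4 of seed, 5 of flower and 5 of guard cell and phloem), 0 were listed. Their levels are therefore not known here, and the labelled tissue could not be checked against them.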

How the data were processed

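Polyadenylated leaf RNA of 1 wild-type and 1 WRKY75 RNAi library was sequenced. Reads were aligned with Bowtie to TAIR10, per the submitters' processing notes; the sources used here give neither the version nor the counter, the strand setting or the authors' test. Per the file headers, the authors deposited read counts per transcript model, RPKM, the log2 ratio of RPKM, p-values and false discovery rates, for 998 lower and 1360 higher models only. A row without a locus (0.103% of wild-type and 0.0384% of RNAi reads) was left out.

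Library totals are the median of reads divided by RPKM and length. The number of tested models was that at which p, false discovery rate and rank gave whole ranks (mean distance from a whole number 0.00194 over 545 rows, next best 0.112). Deposited lengths equalled the genomic span less 1 base in 458 of 2254 models matched to TAIR10.1, and the spliced length, or that less 1 base, in 3 of 1677 models with introns; over the latter the median quotient was 0.946 to the span and 1.26 to the spliced length. Each locus is represented by its model with most reads. Sequences and gene models were read from the RefSeq genome and annotation TAIR10.1 at that annotation's own coordinates; of 2159 loci, 2147 were in its gene table.

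No test was made, because there is 1 library per genotype. Intervals of single ratios are Clopper-Pearson (scipy 1.17.1), and their coverage was checked on simulated reads. Those reads held counting error only, so the check cannot speak to spread between plants or to PCR copies. They were drawn from better-counted loci, so loci with few wild-type reads, such as NAC025, MGD3 and APX2, were not covered. Intervals between 2 ratios use a normal approximation of the log odds ratio. Named genes are the 3 members, WRKY75, every listed gene of the lists and the 3 nearest loci per member; PR1, the listed neighbours and unlisted genes were named after the values were seen. Members and lists were chosen with earlier results of these data known.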

Additional observations from a re-analysis of the deposited data

How the results depend on the processing

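The settings tried could change the size of the log2 ratios of NAP, SAG21 and RNS1 but not their sign. Equal RPKM added to both libraries cannot reverse a ratio, and the library totals differ too little to do so. Both SAG21 models were chosen as lower. NAP, on 361 and 98 reads, was the most sensitive: -1.71 with 0.1, -1.38 with 1 and -0.75 with 5 RPKM added. RNS1 was at 3.36 with 1 and 2.91 with 5 RPKM added. SAG21 moved beyond its narrow counting interval to -1.79 without scaling to the library totals and to -1.72 for its model with fewer reads. Under a stricter threshold of 2 on the absolute log2 ratio, the lower counts of leaf senescence, NAP-related NAC, LEA_3 and hydrogen peroxide genes and the higher counts of leaf senescence genes and NAP targets became 0, and that of higher NAP-related NAC genes became 1. A minimum of 1 RPKM left 1 higher NAP-related NAC gene, 1 higher phosphate starvation gene (RNS1) and 0 higher hydrogen peroxide genes. With 1 RPKM added the same counts were 0, 1 and 0. In these small groups 1 gene decides such a change. Of 80 recomputed values, 61 stayed within the counting interval or within 1.5 times the count. The count settings can only remove listed genes, so counts of 0 had to stay 0 and are among the 61. That total is therefore no measure of stability. The second-model setting gave no value for NAP and RNS1, which have 1 listed model. No paired analysis was possible because each genotype has 1 library.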

Other observations

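Among protein-coding loci, the W-box forms searched above were more frequent before lower loci than before higher loci. Loci not annotated as protein-coding were left out, so 849 of 930 lower and 1146 of 1229 higher loci were searched. TTGACC or TTGACT was present within 250 bases of the start in 43.6% of 849 lower loci, 25.04% of 1146 higher loci and 28.4% of all 27443 protein-coding genes. SAG21 is among the lower loci with a match, NAP is among those without one, and RNS1 is among the higher loci without one. A G-box was present in 5.18% of lower and 11.2% of higher loci, against 6.49% of all genes, and NAP is one of the lower loci with it. Genes that are neighbours or members of one family are not independent, and no test of these shares was made.

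According to the authors' deposited table, RNS1 has a p of 1.6e-12 and NAP a p of 4.88e-32, although RNS1 rests on more reads and a larger ratio. Deposited p-values were therefore not used to order the 3 genes.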
